A study of Mus musculus with 16 samples.

Results

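The 10 genes described here encode surface receptors by which regulatory T cells (Treg cells) are recognised and through which they act. They are Ctla4, Icos and Tigit, receptors of the immunoglobulin superfamily; Tnfrsf4, Tnfrsf9 and Tnfrsf18, members of the tumour necrosis factor (TNF) receptor superfamily; Lrrc32, Nrp1 and Itgae; and Gpr83, a G protein-coupled receptor. They were taken by gene symbol through the array's platform annotation, keeping probe sets that carry a single symbol, and each was measured by 1 such probe set. All 10 were found among 22180 named genes and all 10 were among the 16760 genes bright enough to be tested. For Tnfrsf18, 1 further probe set carries several symbols and was left out.

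The series holds 16 arrays in 4 groups of 4, from C57BL/6 mice. One genotype, Atg7+/flFoxp3-Cre (labelled Atg7+/-), keeps 1 intact copy of Atg7, an enzyme that autophagy requires; in the other, Atg7fl/flFoxp3-Cre (labelled Atg7-/-), both copies are floxed. Mice of each genotype were untreated or were injected with rapamycin, an inhibitor of the kinase mTOR, at 4 mg per kg of body weight each day for 5 days. From spleen and peripheral lymph nodes, CD4+Foxp3-YFP+ cells were isolated by sorting, and cells of all 4 groups were activated through CD3 and CD28 for 4 hours, so every level given below is that of stimulated cells. Every mouse carried Foxp3-Cre, whose Cre is expressed where Foxp3 is active, and at least 1 floxed allele, and no group with wild-type Atg7 was used here. The control mice are labelled untreated, with no vehicle named, and neither age nor sex appears in the labels. The labels do not say whether the 4 arrays of a group came from 4 mice, so the p-values speak for the spread among arrays, part of which may be technical.

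Treg cells restrain other immune cells through contact, through uptake of growth factors and through cytokines such as TGF-beta. CTLA-4 removes the costimulatory ligands CD80 and CD86 from antigen-presenting cells, while ICOS, GITR (Tnfrsf18), OX40 (Tnfrsf4) and 4-1BB (Tnfrsf9) deliver costimulation to the Treg cell itself. GARP (Lrrc32) holds latent TGF-beta at the cell surface, CD103 (Itgae) pairs with the integrin beta 7 chain to bind E-cadherin on epithelium, and neuropilin-1 (Nrp1) binds semaphorins and is used as a marker of Treg cells of thymic origin. Several of these genes are targets of the transcription factor Foxp3, and several are induced by stimulation of the T cell receptor.

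The sorted cells had the markers of their label in all groups. The group means of Foxp3 lay between log2 values of 10.86 and 11.34. All 8 measured genes of a list of Treg and T cell markers were above the value used to leave out dim genes (3.549) in every group. Their group means ran from 8.16 (Cd4) to 12.10 (Il2ra). All 10 conventional T cell and all 7 measured macrophage and monocyte markers were above 3.549 in every group too. Passing that value therefore does not tell cell types apart. In untreated cells Foxp3 was lower in Atg7-/- than in Atg7+/- (-0.40 on the log2 scale, SE 0.101; limma adjusted p = 0.0355), and under rapamycin its difference was -0.35 (adjusted p = 0.0662). The difference of Atg7 itself was -0.28 in untreated and -0.30 in rapamycin-treated cells (adjusted p = 0.299 and 0.232); since the probe set may sit in exons that the deletion spares, Atg7 is no check of the genotypes. On the second principal component, replicate 3 of the rapamycin Atg7-/- group lay away from the rest (-29.83 against -12.88 to -7.57 for the other 3), and values without it are given beside the genotype and rapamycin results that it changed most. Of the 10 receptor genes, 8 had mean signals at percentile 94.5 or higher among the genes tested; Nrp1 lay at percentile 79.4 and Itgae at percentile 64.9.

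For 2 of the receptor genes whose values moved with rapamycin, in opposite directions, the 250 bases before the start site are shown for the reader to see the regions named. They come from RefSeq on build GRCm38.p6, which holds such windows for 7 of the 10 genes; the windows of Nrp1, Tigit and Gpr83 lie inside the RefSeq record of the gene itself and are not printed. Capitals mark matches, on either strand, to 7 short motifs: TGTTTAC (forkhead), TGANTCA (AP-1), TTCNNNGAA (STAT), GGAAAA (NFAT), TGTGGT (RUNX), CAGACA (SMAD) and CACGTG (E-box).
Ctla4, chr1:60908775-60909024, plus strand: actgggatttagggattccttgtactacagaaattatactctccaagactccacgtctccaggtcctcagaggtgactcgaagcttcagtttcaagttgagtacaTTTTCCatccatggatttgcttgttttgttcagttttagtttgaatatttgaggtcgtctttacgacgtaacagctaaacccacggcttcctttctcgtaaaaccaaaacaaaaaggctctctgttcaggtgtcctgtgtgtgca
Tnfrsf18, chr4:156026072-156026321, plus strand: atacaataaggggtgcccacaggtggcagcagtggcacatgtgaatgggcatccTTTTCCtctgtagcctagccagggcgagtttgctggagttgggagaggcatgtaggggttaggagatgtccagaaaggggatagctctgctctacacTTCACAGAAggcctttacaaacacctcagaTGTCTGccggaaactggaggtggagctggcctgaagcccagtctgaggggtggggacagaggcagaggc
The Ctla4 window holds 1 NFAT-type match 145 bases before the start site, printed as TTTTCC because GGAAAA lies on the other strand. The Tnfrsf18 window holds an NFAT-type match at 196 bases, a STAT-type match at 99 bases and a SMAD-type match at 69 bases before the start site. None of the marked matches overlap one another. Of 32817 such windows in the RefSeq table, 20.4% hold the NFAT letters, 7.01% the STAT letters and 17.1% the SMAD letters. A match describes the letters only.

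None of the 10 receptor genes passed the test between Atg7-/- and Atg7+/- cells, in untreated or in rapamycin-treated mice. A gene was called at a limma p-value, adjusted by the Benjamini-Hochberg method over all 16760 genes, under 0.05. Of all genes, 3.14% were called between untreated genotypes and 3.24% between genotypes under rapamycin, so few or none of 10 genes would be called at those shares. At an unadjusted p under 0.05 there were 2 members in the first comparison and 4 in the second, where 2910 and 3067 of all 16760 genes had such a p. The log2 differences (Atg7-/- minus Atg7+/-) of the 10 genes ran from -0.29 to 0.10 in untreated cells, with a median of -0.07 against 0.02 over all genes, and from -0.33 to 0.03 under rapamycin, with a median of -0.11 against 0.02. The widest 95% confidence intervals of these differences belonged to Itgae, -0.29 to 0.49 in untreated cells and -0.36 to 0.42 under rapamycin.

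**Figure D1:**
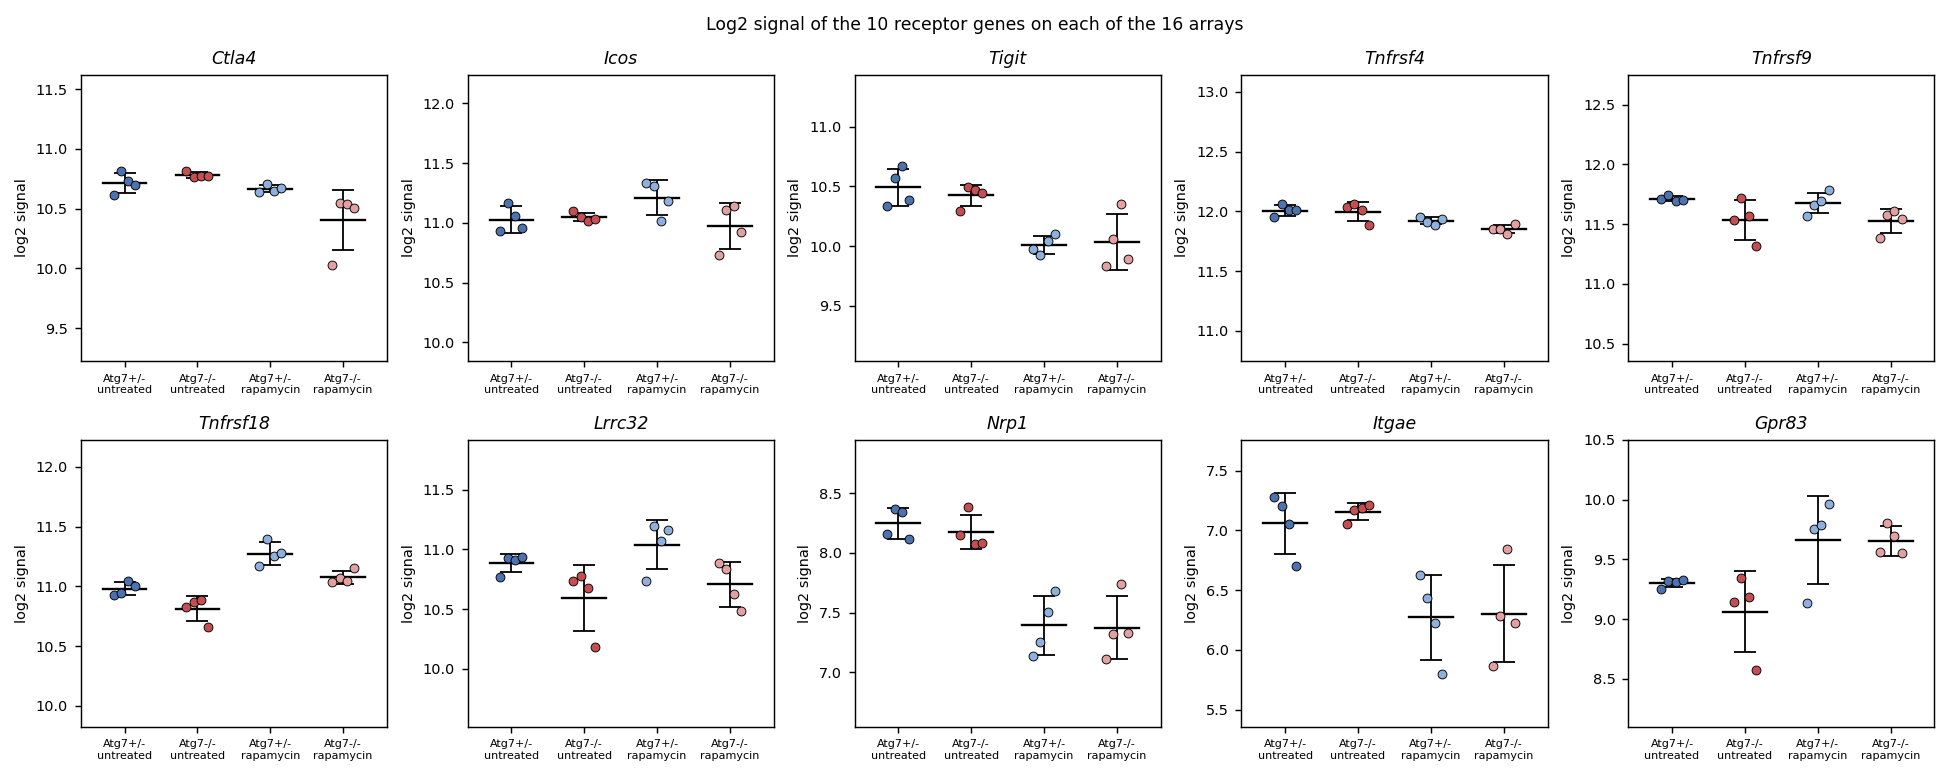
Log2 signal (vertical axis, spanning 2.4 units in every panel) of each receptor gene on each array, by group; points are arrays, the long bar is the group mean and the whiskers are 1 SD (n = 4). Nrp1, Itgae and Tigit sit lower in both rapamycin groups, Tnfrsf18 sits higher, and no gene was called between genotypes within a treatment.

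Lrrc32 and Tnfrsf18 had the largest genotype differences when averaged over treatments. Lrrc32 had log2 values of 10.77, 10.93, 10.91 and 10.93 in untreated Atg7+/- cells and 10.74, 10.78, 10.68 and 10.19 in untreated Atg7-/- cells. Under rapamycin it had 10.74, 11.19, 11.07 and 11.16 in Atg7+/- and 10.89, 10.84, 10.62 and 10.48 in Atg7-/- cells. In both treatments the groups overlapped through 1 low Atg7+/- array, replicate 1, and the differences were -0.29 (SE 0.133, limma adjusted p = 0.264) and -0.33 (SE 0.133, adjusted p = 0.181). Without the lowest array, untreated Atg7-/- replicate 4, the untreated difference was -0.16 (adjusted p = 0.577). The Tnfrsf18 values of Atg7-/- cells lay below those of Atg7+/- cells without overlap in both treatments, a pattern found with that direction in 5.97% of genes in untreated cells and 3.76% under rapamycin. Its differences were -0.17 (SE 0.0784, adjusted p = 0.278) and -0.20 (SE 0.0784, adjusted p = 0.179).

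When the genotype difference was averaged over both treatments in the same fit, a contrast added after the values within each treatment had been seen, Lrrc32 and Tnfrsf18 were called lower in Atg7-/- cells and the other 8 genes were not called. With an intensity trend and robust prior Tnfrsf9 was called lower too (-0.16, adjusted p = 0.0251). The averaged log2 difference was -0.31 for Lrrc32 (SE 0.094, adjusted p = 0.0376) and -0.18 for Tnfrsf18 (SE 0.0555, adjusted p = 0.0387), or 1.24-fold and 1.14-fold lower. In this contrast 12.0% of all genes were called, 7.50% as higher and 4.49% as lower in Atg7-/- cells. A negative difference was found for 9 of the 10 receptor genes, among them small ones for Tigit, Tnfrsf4 and Nrp1 (-0.02, -0.04 and -0.05). The share of all genes with a negative difference was not counted, but 37.4% of all genes lay below the value of Tigit. The median was -0.10 over the receptor genes and 0.02 over all genes. Both calls were weak: over 24 alternatives, most of them leaving out 1 array, the Lrrc32 call was lost under 10 (adjusted p up to 0.0853) and the Tnfrsf18 call under 15 (up to 0.133), with the direction kept in all 24 for each. Without rapamycin Atg7-/- replicate 3 both were lost (adjusted p = 0.0643 and 0.0596), and without untreated Atg7-/- replicate 4 likewise (0.0618 and 0.0716). Foxp3 had an averaged difference of -0.37 (adjusted p = 0.00274) on the same arrays; its part in the receptor values was not tested.

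None of the other 8 genes was called between genotypes within a treatment. The differences of Ctla4 and Icos under rapamycin and of untreated Gpr83 were larger in size than both of those of Tnfrsf18 (-0.17 and -0.20). Ctla4 had log2 values of 10.62, 10.82, 10.73 and 10.70 in untreated Atg7+/- and 10.81, 10.77, 10.77 and 10.77 in untreated Atg7-/- cells, a difference of 0.07 (SE 0.1, adjusted p = 0.799) with a 95% interval of -0.15 to 0.28. Under rapamycin the Atg7-/- arrays of Ctla4, at 10.03, 10.55, 10.54 and 10.51, lay below the Atg7+/- arrays, at 10.64, 10.71, 10.65 and 10.67. That pattern was found in that direction for 3.76% of all genes. The Ctla4 difference was -0.26 (SE 0.1, limma adjusted p = 0.162). Without the array at 10.03, replicate 1, it was -0.14 (adjusted p = 0.34), and the Icos difference under rapamycin was -0.15 (adjusted p = 0.422). The receptors Tnfrsf4 and Tnfrsf9 differed by -0.01 and -0.18 in untreated cells and by -0.07 and -0.15 under rapamycin (adjusted p = 0.973, 0.308, 0.67 and 0.399). Icos differed by 0.02 and -0.23 (adjusted p = 0.95 and 0.213), Tigit by -0.07 and 0.02 (0.81 and 0.956) and Nrp1 by -0.07 and -0.02 (0.837 and 0.96). Itgae differed by 0.10 and 0.03 (0.845 and 0.958) and Gpr83 by -0.24 and -0.01 (0.486 and 0.99). Without untreated Atg7-/- replicate 4 the untreated differences of Gpr83 and Tnfrsf9 were -0.08 and -0.11 (adjusted p = 0.861 and 0.603). Without rapamycin Atg7-/- replicate 3, the differences under rapamycin were -0.14 for Nrp1, -0.15 for Itgae and -0.09 for Tigit (adjusted p = 0.662, 0.758 and 0.754), so the direction turned for Itgae and Tigit. The direction of Nrp1 and Gpr83 under rapamycin turned to 0.04 and 0.05 when each array was centred on its median, that of Tigit to -0.01 with quantile normalization and -0.03 with array weights, and that of untreated Tnfrsf4 to 0.0043 with array weights.

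Rapamycin moved a larger part of this receptor set, downward for Nrp1, Itgae and Tigit and upward for Tnfrsf18 in both genotypes. In Atg7+/- cells 4 of the 10 genes were called, 1 higher and 3 lower, where 14.1% of all genes were called (6.03% higher and 8.11% lower). In Atg7-/- cells 6 were called, 2 higher and 4 lower, where 20.0% of all genes were called (8.83% higher and 11.1% lower). The comparisons within the 2 genotypes share no arrays; 9 of the 10 genes had the same direction in both, all but Icos, against 75.3% of all genes tested. The members' median log2 difference was -0.04 in Atg7+/- and -0.11 in Atg7-/- cells, against -0.03 and -0.04 over all genes.

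**Figure D2:**
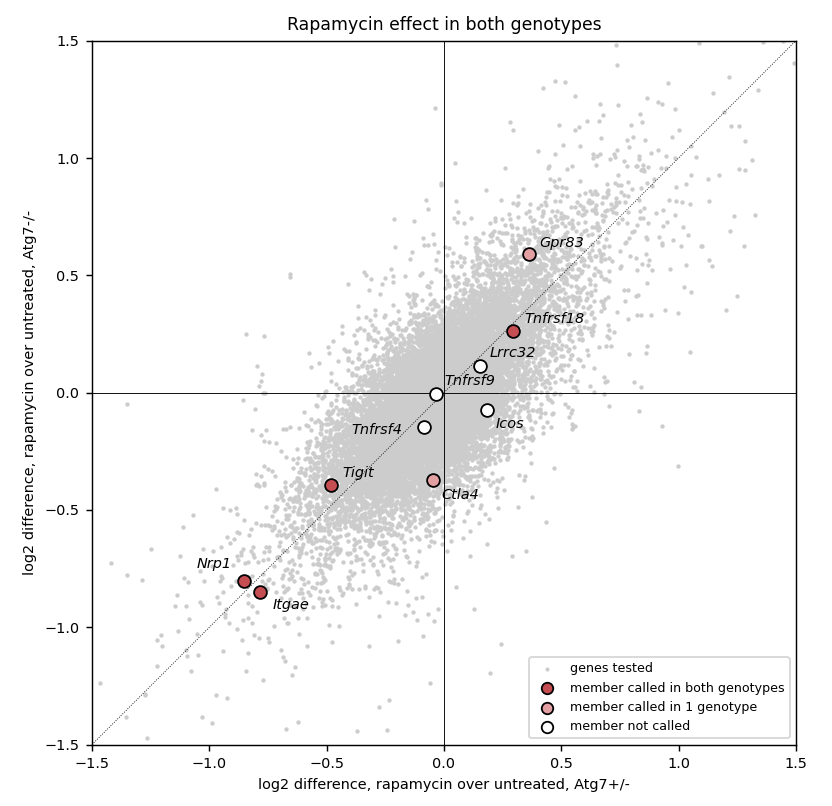
Log2 difference between rapamycin and untreated cells in Atg7+/- (horizontal axis) and Atg7-/- mice (vertical axis) for the genes tested (grey; 46 genes lie outside the axes, which end at 1.5) and the 10 receptor genes (circles filled by the number of genotypes in which each was called; the dotted line marks equal effects). Nrp1 and Itgae lie far down the line, near -0.8 in both genotypes, and Tnfrsf18 and Gpr83 lie at its upper part.

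Nrp1 and Itgae were the members with the largest changes. Nrp1 had log2 values of 8.16, 8.37, 8.35 and 8.12 in untreated Atg7+/- cells and 7.14, 7.25, 7.50 and 7.68 after rapamycin. In Atg7-/- cells the values were 8.15, 8.39, 8.08 and 8.09 untreated and 7.11, 7.32, 7.74 and 7.33 after rapamycin. All 8 rapamycin arrays thus lay below all 8 untreated arrays. Nrp1 fell 1.81-fold in Atg7+/- cells (log2 difference -0.85, SE 0.135, limma adjusted p = 0.000634) and 1.74-fold in Atg7-/- cells (-0.80, SE 0.135, adjusted p = 0.00062); its absolute change lay at percentiles 98.8 and 97.8 of all genes. Groups that do not overlap in the lower direction were found for 13.1% of genes in Atg7+/- and 11.6% in Atg7-/- cells.

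Itgae had log2 values of 7.28, 7.21, 7.05 and 6.70 in untreated Atg7+/- cells and 6.63, 6.44, 6.23 and 5.80 after rapamycin. In Atg7-/- cells it had 7.05, 7.17, 7.19 and 7.21 untreated and 5.86, 6.29, 6.84 and 6.23 after rapamycin. The groups did not overlap within either genotype, as in the lower direction for 13.1% of genes in Atg7+/- and 11.6% in Atg7-/- cells. The pooled SE (0.186) was above that of any other member, and rapamycin Atg7-/- replicate 3 was the highest of its group. Itgae fell 1.72-fold in Atg7+/- (-0.79, SE 0.186, adjusted p = 0.00986) and 1.8-fold in Atg7-/- cells (-0.85, SE 0.186, adjusted p = 0.00393). Without that replicate the Atg7-/- differences were -1.03 for Itgae (adjusted p = 0.000542) and -0.92 for Nrp1 (adjusted p = 0.000113).

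Tigit, an inhibitory receptor that competes with CD226 for the ligands CD155 (Pvr) and CD112 (Nectin2), had log2 values of 10.34, 10.57, 10.67 and 10.39 in untreated Atg7+/- cells and 9.98, 9.93, 10.04 and 10.10 after rapamycin. In Atg7-/- cells it had 10.29, 10.50, 10.47 and 10.44 untreated and 9.83, 10.06, 10.35 and 9.89 after rapamycin. The groups were separate in Atg7+/- cells, as in the lower direction for 13.1% of genes. In Atg7-/- cells they overlapped through rapamycin replicate 3, at 10.35. Tigit fell 1.39-fold in Atg7+/- (-0.48, SE 0.109, adjusted p = 0.00779) and 1.31-fold in Atg7-/- cells (-0.39, SE 0.109, adjusted p = 0.017). The call in Atg7-/- cells was lost without rapamycin Atg7-/- replicate 1 or replicate 4 (-0.32 and -0.34, adjusted p = 0.0523 and 0.0559), and without replicate 3 the difference was -0.50 (adjusted p = 0.00204). It was also lost with arrays centred on their medians (adjusted p = 0.0583) or with the 2 groups fitted alone (0.0551).

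Tnfrsf18, which encodes GITR, moved the other way. It had log2 values of 10.92, 10.94, 11.04 and 11.00 in untreated Atg7+/- cells and 11.17, 11.39, 11.25 and 11.28 after rapamycin. In Atg7-/- cells it had 10.83, 10.87, 10.89 and 10.66 untreated and 11.03, 11.07, 11.05 and 11.15 after rapamycin. The rapamycin arrays lay above the untreated arrays in each genotype, as for 9.64% and 8.76% of all genes. Tnfrsf18 rose 1.23-fold in Atg7+/- (0.29, SE 0.0784, adjusted p = 0.0183) and 1.2-fold in Atg7-/- cells (0.26, SE 0.0784, adjusted p = 0.0241). These calls sat near the threshold. The first was lost without untreated Atg7+/- replicate 1 or 2 or rapamycin Atg7+/- replicate 2 (adjusted p = 0.0501, 0.0505 and 0.0656) and the second without untreated or rapamycin Atg7-/- replicate 4 (0.071 and 0.0685). Median centring ended the first (adjusted p = 0.07) and fitting the 2 groups alone the second (0.0814). Averaged over both genotypes the rise was 0.28 (SE 0.0555, adjusted p = 0.000954) and was called under all 24 alternatives. In that contrast, also added after the values were seen, 6 of the 10 genes were called, 2 higher and 4 lower, where 33.0% of all genes were called (13.8% higher and 19.2% lower); they were the 6 called in Atg7-/- cells.

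Its chromosomal neighbour Tnfrsf4, which encodes OX40 and directly precedes Tnfrsf18 among the coding genes of chromosome 4, did not share that rise. Tnfrsf4 had differences of -0.09 in Atg7+/- (SE 0.0697, adjusted p = 0.454) and -0.15 in Atg7-/- cells (SE 0.0697, adjusted p = 0.147). The third TNF receptor of the set, Tnfrsf9, had differences of -0.04 and -0.01 (SE 0.0883, adjusted p = 0.833 and 0.972), with 95% intervals of -0.22 to 0.15 and -0.19 to 0.18. Tnfrsf4 passed the test in Atg7-/- cells with quantile normalization (-0.23, adjusted p = 0.0279) or with an intensity trend and robust prior (adjusted p = 0.0207).

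Ctla4 and Gpr83 were called in Atg7-/- but not in Atg7+/- cells, and for neither was the difference between the genotypes' responses called. Ctla4 had log2 values of 10.81, 10.77, 10.77 and 10.77 in untreated Atg7-/- cells and 10.03, 10.55, 10.54 and 10.51 after rapamycin. These Atg7-/- groups did not overlap, as in the lower direction for 11.6% of genes. Ctla4 fell 1.3-fold there (-0.37, SE 0.1, adjusted p = 0.0139); in Atg7+/- cells the rapamycin values were 10.64, 10.71, 10.65 and 10.67 and the difference was -0.05 (SE 0.1, adjusted p = 0.8). The difference of the 2 effects was -0.33 (SE 0.142, adjusted p = 0.792, unadjusted p = 0.0334). Replicate 1, at 10.03, stood below the rest of the rapamycin Atg7-/- group; without it the difference of the effects was -0.20 (adjusted p = 0.655), and the Ctla4 difference in Atg7-/- cells was -0.25 and still called (adjusted p = 0.029). With the 2 groups fitted alone the call was lost (adjusted p = 0.0649).

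Gpr83, a G protein-coupled receptor enriched in Treg cells, had log2 values of 9.14, 9.35, 9.18 and 8.57 in untreated Atg7-/- cells and 9.56, 9.81, 9.70 and 9.55 after rapamycin. In Atg7+/- cells it had 9.25, 9.32, 9.31 and 9.33 untreated and 9.13, 9.76, 9.79 and 9.97 after rapamycin, where replicate 1 lay below all untreated arrays. Gpr83 rose 1.51-fold in Atg7-/- cells (0.59, SE 0.162, adjusted p = 0.0158); in Atg7+/- cells the difference was 0.36 (SE 0.162, adjusted p = 0.149). The call in Atg7-/- cells was lost without untreated replicate 4 (0.43, adjusted p = 0.0529), and without rapamycin replicate 1 the Atg7+/- difference was 0.54 and called (adjusted p = 0.0238). Over both genotypes the averaged rise was 0.48 (SE 0.115, adjusted p = 0.0042), and the difference of the effects was 0.23 (SE 0.23, adjusted p = 0.897), or 0.07 without untreated Atg7-/- replicate 4 and 0.05 without rapamycin Atg7+/- replicate 1 (adjusted p = 0.982 and 0.991).

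The 2 remaining genes did not pass the test under rapamycin. Icos, which lies next to Ctla4 on chromosome 1, had differences of 0.18 in Atg7+/- and -0.07 in Atg7-/- cells (SE 0.0999, adjusted p = 0.242 and 0.644). Lrrc32 had 0.15 and 0.11 (SE 0.133, adjusted p = 0.478 and 0.586); without rapamycin Atg7+/- replicate 1 the first was 0.26 (adjusted p = 0.239), and without untreated Atg7-/- replicate 4 the second was -0.02 (adjusted p = 0.913). No gene at all was called for the difference of the rapamycin effects by limma, where 1052 of 16760 genes had an unadjusted p under 0.05 and 1 of the 10 receptors did.

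**Figure D3:**
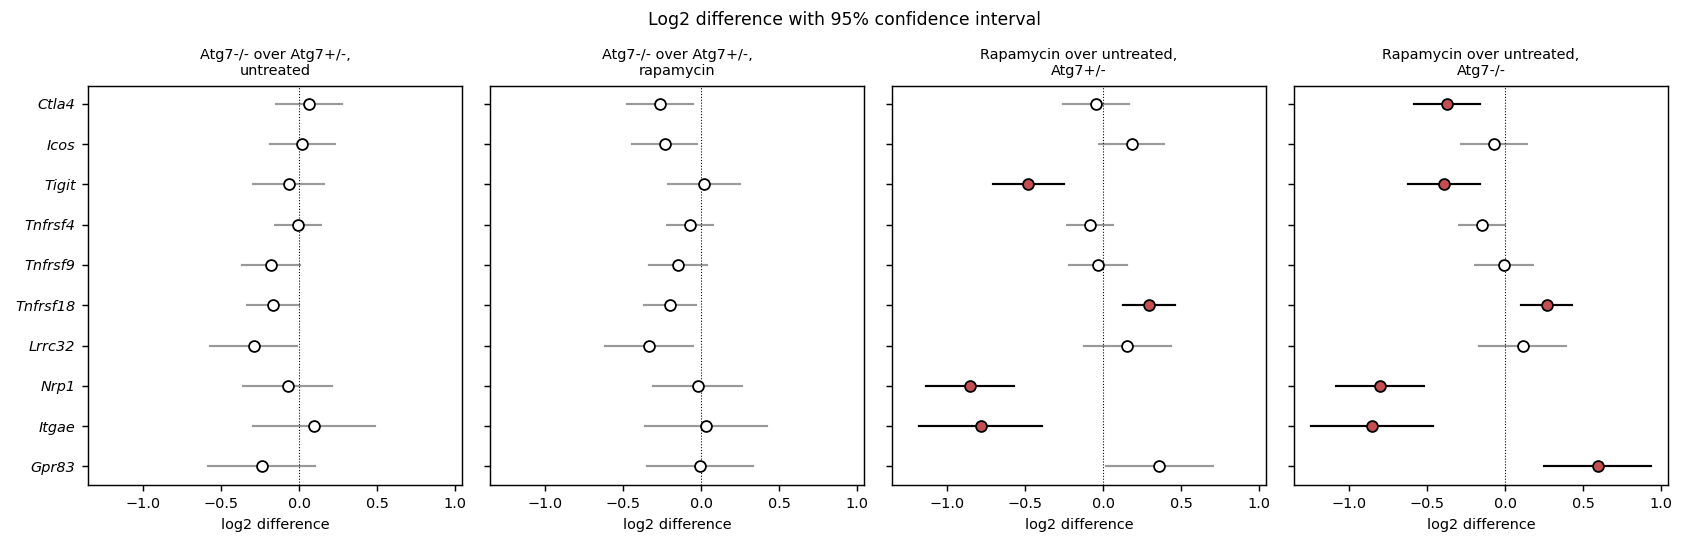
Log2 differences of the 10 receptor genes (points) with 95% confidence intervals from the limma fit (lines), for genotype within each treatment and rapamycin within each genotype; filled points were called. No point is filled in the genotype panels, 4 are filled for rapamycin in Atg7+/- cells and 6 in Atg7-/- cells.

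Within groups, some single arrays were low or high for several receptors at once. How often each array was lowest or highest over all genes was not counted, so these counts do not set the receptors apart from other genes. Untreated Atg7-/- replicate 4 had the lowest value of its group for 5 of the 10 genes, and the lowest of all 16 arrays for Tnfrsf18, Tnfrsf9, Lrrc32 and Gpr83. Rapamycin Atg7-/- replicate 1 was lowest in its group for 7 genes and lowest of all 16 for Ctla4, Nrp1, Icos and Tigit. Rapamycin Atg7+/- replicate 1 was lowest in its group for 6 genes and untreated Atg7+/- replicate 1 for 7. Replicate 3 of rapamycin Atg7-/- cells, the array that stood apart, was highest in its group for 5 genes, among them Nrp1, Itgae and Tigit.

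The genes whose profiles over the 16 arrays lay nearest to each called receptor were found by the root mean square difference of log2 values, each gene centred on its own mean. Nearest to Nrp1 was Thy1, a surface glycoprotein of T cells, at 0.112, where Nrp1 itself varied by 0.451 and the median of 14403 candidate genes was 0.462. Thy1, which is also on the list of conventional T cell markers below, had rapamycin differences of -0.88 and -1.01 in Atg7+/- and Atg7-/- cells. Plekhb2 and Tspan31 followed at 0.136 each. Nearest to Tigit were Ywhah (0.0892), Itgb1 (0.0902), the integrin beta 1 chain, which also directly follows Nrp1 on chromosome 8, and Plscr3 (0.0945), with a candidate median of 0.296. Nearest to Itgae were Cpeb4 (0.214), the aryl hydrocarbon receptor gene Ahr (0.22) and Iqgap2 (0.224), with a candidate median of 0.497. Tnfrsf18 had Pik3c2a, a lipid kinase, at 0.0673, then Gpbp1l1 and Dyrk1b; Gpr83 had Brpf3 (0.152), Wdr82 and Cenpt; and Ctla4 had Il6st (0.102), the shared receptor chain of the interleukin 6 family, then Rsbn1 and Tnik. The 16 arrays share 4 groups, so a small distance reflects the group means as well as the spread within groups.

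Genes that work with these receptors were counted from lists of partners. Of all genes, 6.03% rose and 8.11% fell after rapamycin in Atg7+/- cells, and 8.83% rose and 11.1% fell in Atg7-/- cells. Between genotypes 3.14% were called in untreated cells and 3.24% under rapamycin. An unadjusted limma p under 0.05 was found for 2910 and 3067 of 16760 genes between genotypes, and for 4868 and 5726 after rapamycin. Several list counts lie near or under these shares, such as 1 of 16 ligand genes in Atg7-/- cells. In the list of latent TGF-beta, TGF-beta signalling and integrin partner genes, 6 of 17 fell and 1 rose after rapamycin in Atg7+/- cells, with a median of -0.27, and 9 fell and 2 rose in Atg7-/- cells, with a median of -0.36. Furin, a protease that processes the TGF-beta precursor, fell by 0.83 and 0.96 (adjusted p = 0.000144 and 2.29e-05). The receptor chain Tgfbr2 fell by 0.64 and 0.46 (adjusted p = 0.00467 and 0.0216) and the signal transducer Smad3 by 0.61 in each genotype (adjusted p = 0.0103 and 0.00688). Runx3, a transcription factor known to promote Itgae expression, fell by 0.52 and 0.66 (adjusted p = 0.0454 and 0.00981), and Itgb8, an integrin chain that activates latent TGF-beta, fell by 0.61 in Atg7-/- cells (adjusted p = 0.000618). Between genotypes limma called 0 of 17 in untreated cells (4 at an unadjusted p under 0.05; Itga4 had the smallest, -0.28, adjusted p = 0.0761), and 3 were lower in Atg7-/- cells under rapamycin, Itgb8 (-0.47), the integrin chain Itga4 (-0.45) and Skil (-0.34).

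**Figure D4:**
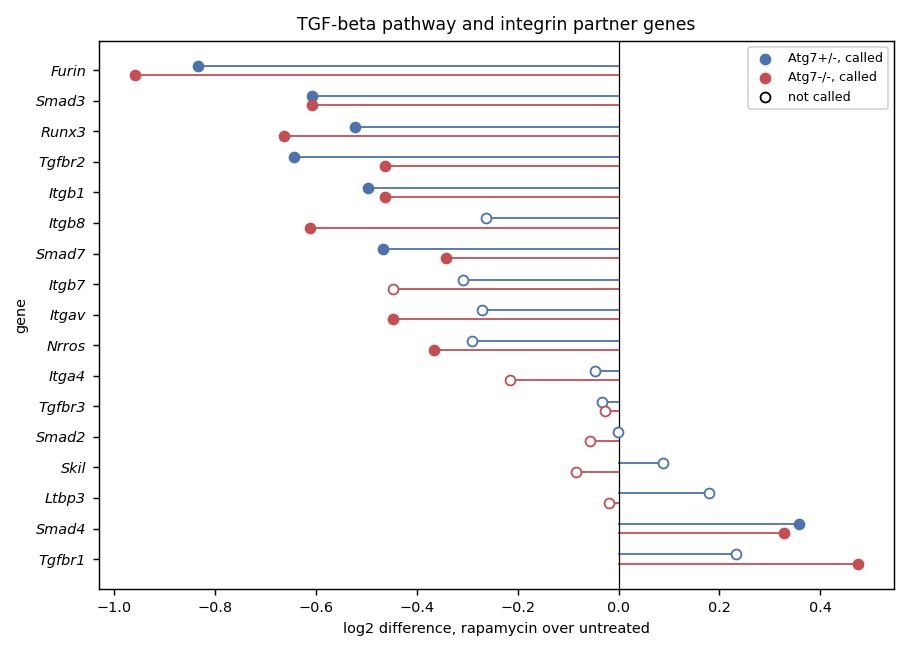
Log2 difference between rapamycin and untreated cells (horizontal axis) for the 17 genes of the TGF-beta and integrin partner list, in Atg7+/- (blue) and Atg7-/- mice (red); filled points were called. Most points lie left of 0, with Furin lowest, while Smad4 and Tgfbr1 lie at the right.

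Among 22 other TNF receptor genes, 1 rose and 4 fell after rapamycin in Atg7+/- cells and 1 rose and 6 fell in Atg7-/- cells. Of all genes, 14.1% and 20.0% were called in these comparisons. The death receptor gene Tnfrsf10b fell in both (-0.64 and -0.66), as did Tnfrsf1a (-0.54 and -0.63), and Tnfrsf14 fell in Atg7+/- cells (-0.47). Cd27, a costimulatory receptor, rose in both (0.40 and 0.79), and Tnfrsf8, which encodes CD30, fell by 0.68 in Atg7-/- cells. Tnfrsf8 was also the 1 gene of this list called between untreated genotypes, higher in Atg7-/- cells by 0.69 (adjusted p = 0.0141); under rapamycin limma called 0 of 22, with 3 at an unadjusted p under 0.05. Of 10 adaptors of these receptors, 2 rose in both genotypes, Birc2 (0.45 and 0.44) and Siva1 (0.39 and 0.47), and 1 fell in each, Traf4 in Atg7+/- (-0.51) and Traf5 in Atg7-/- cells (-0.45). Between genotypes limma called 0 of these 10 in either treatment, with 3 and 2 at an unadjusted p under 0.05.

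Of 6 other receptors of the CD28 and TIGIT families, 2 fell and none rose after rapamycin in each genotype. The inhibitory receptor Pdcd1 fell by 0.88 and 0.70 (adjusted p = 9.46e-05 and 0.000408), Cd96 by 0.42 in Atg7+/- cells, and Cd28, which precedes Ctla4 on chromosome 1, by 0.42 in Atg7-/- cells. Pdcd1 was also lower in Atg7-/- than in Atg7+/- cells, by 0.70 untreated and 0.52 under rapamycin (adjusted p = 0.00199 and 0.0198). Of 15 genes for trafficking and signalling of CTLA-4 and ICOS, 3 fell in Atg7+/- cells after rapamycin, Ppp2ca, Ptpn11 and Def6 (-0.72, -0.45 and -0.44), and 1 in Atg7-/- cells, Def6 (-0.42). Pik3r1, the regulatory subunit of the kinase that ICOS recruits, was lower in Atg7-/- cells in both treatments (-0.69 and -0.67, adjusted p = 0.00078 and 0.00249), the 1 gene of that list called in each.

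Of 16 genes for ligands of the receptors, 3 fell after rapamycin in Atg7+/- cells, Tnfsf9, the ligand of 4-1BB (-0.53), Tgfb1 (-0.40) and Vegfa (-0.34), and 1 in Atg7-/- cells, Nectin2 (-0.53). Cd86, a ligand of CTLA-4, was lower in untreated Atg7-/- than Atg7+/- cells (-0.99, adjusted p = 0.0142), with -0.74 under rapamycin (adjusted p = 0.0601); 0 of 16 were called there by limma, with 1 at an unadjusted p under 0.05. Of 11 neuropilin and plexin partners, 0 were called after rapamycin in Atg7+/- cells by limma, with 2 at an unadjusted p under 0.05 and the smallest p for Plxna1 (-0.34, adjusted p = 0.054), and Plxna3 rose in Atg7-/- cells (0.40); Plxnb2 was higher in untreated Atg7-/- cells (0.51, adjusted p = 0.0494), and 0 were called between genotypes under rapamycin, with 1 at an unadjusted p under 0.05. Of 13 other lymphoid G protein-coupled receptors, 1 rose and 2 fell in Atg7+/- cells and 1 rose and 5 fell in Atg7-/- cells. Gpr18 rose in both (0.43 and 0.66), Gpr171 (-0.62 and -0.60) and Gpr174 (-0.62 and -0.42) fell in both, and Gpr55, Gpr132 and Gpr65 fell in Atg7-/- cells (-0.69, -0.67 and -0.65). Between genotypes Gpr183 was higher in untreated Atg7-/- cells (0.53, adjusted p = 0.00076), and under rapamycin Gpr18 was higher (0.57, adjusted p = 0.0256) and Gpr132 lower (-0.72, adjusted p = 0.0111). Izumo1r, a folate receptor family gene of Treg cells that follows Gpr83 on chromosome 9 and was picked after its values were seen, rose by 0.40 and 0.70 (adjusted p = 0.0204 and 0.000308). Mre11a, which precedes Gpr83, had 0.16 and -0.08 (adjusted p = 0.253 and 0.552). Emsy, which follows Lrrc32 on chromosome 7, was lower in Atg7-/- cells, with -0.35 untreated and -0.40 under rapamycin (adjusted p = 0.0428 and 0.0253). Gucy2d, which precedes Lrrc32, had 0.12 and -0.04 there (adjusted p = 0.626 and 0.903). Emsy and Gucy2d were also picked after their values were seen.

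Some genes on the list of conventional T cell markers moved with rapamycin and with genotype as well. That list includes genes such as Thy1 and Lat that T cells in general express, so it does not measure the content of conventional T cells. Its brightest genes in untreated Atg7+/- cells were Lat, Il2, Thy1 and Cd40lg (group means 11.07, 10.64, 10.51 and 10.11). The summed linear signal over the 10 genes of that list ran from 7477 to 7907 in untreated and 5209 to 6142 in rapamycin Atg7+/- cells, and from 7986 to 9263 and 5566 to 8154 in Atg7-/- cells. After rapamycin 4 fell and 2 rose in each genotype, where 14.1% of all genes were called in Atg7+/- and 20.0% in Atg7-/- cells. All 10 were above the dim value in every group. In untreated Atg7-/- against Atg7+/- cells Themis and Cd40lg had higher group means (7.31 against 5.95 and 10.61 against 10.11). Il7r and Satb1 had lower ones (7.70 against 8.04 and 9.38 against 9.47). Of the 8 Treg and T cell markers, 3 fell in each genotype after rapamycin. The list of CD8 T and NK cell markers (9 measured) summed to 396 to 409 and 294 to 349 in Atg7+/- and to 533 to 568 and 453 to 499 in Atg7-/- cells. B cell markers (7 measured) summed to between 131 and 164 in all 4 groups, with Ms4a1 below the dim value in each. Dendritic cell markers (7 measured) summed to between 259 and 351 and macrophage and monocyte markers (7 measured) to between 230 and 477. Stromal and endothelial markers (6 measured) summed to 294 to 315 and 217 to 251 in untreated and rapamycin Atg7+/- cells and to 376 to 433 and 231 to 323 in Atg7-/- cells, and neutrophil markers (6 measured) to 97 to 182, 92 to 152, 171 to 234 and 99 to 373 in the same order of groups. The stromal and endothelial sum was mostly Pecam1, with group means of 7.64, 7.12, 8.25 and 7.44 in that order. Every other gene of that list had group means of 4.99 or lower. Cdh5 was lower in untreated Atg7-/- than in untreated Atg7+/- cells (3.79 against 4.00). Between genotypes 1 of 10 conventional T cell markers was called higher in untreated Atg7-/- cells, 2 under rapamycin and 3 in the averaged contrast. That is the contrast in which Lrrc32 and Tnfrsf18 were called. Of 8 tested CD8 T and NK cell markers, 2, 2 and 3 were called higher, and none of either list was called lower. The 8 Treg and T cell markers had 0, 2 and 2 called higher and 1, 0 and 1 called lower in the same contrasts. Of all genes, 3.14%, 3.24% and 12.0% were called there, with 7.50% called higher in the averaged contrast. In the CD8 T and NK cell list Klrk1 was below the dim value in every group, and Gzma in both Atg7+/- groups. The genes of that list did not move together. In untreated Atg7-/- against Atg7+/- cells, group means rose most for Gzma (4.69 against 3.54), Nkg7 (7.85 against 6.99) and Cd8b1. Eomes and Prf1 had lower means (4.22 against 4.53 and 5.58 against 5.62), and Cd8a, Ncr1, Klrb1c and Klrk1 differed little. The part of these marker genes in the receptor values was not tested. Fewer cells of a type cannot be told apart from less RNA per cell in such bulk samples.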

How the data were processed

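Gene expression was measured on 16 arrays; the authors deposited a log2 signal for each probe set, for which the submitters' processing notes name RMA and Partek 6.6. The sources used here state neither its settings nor a genome build. No source states the log base, which was set to 2 as in RMA, and folds depend on this. Of 41345 probe sets, 23521 had 1 gene symbol in the platform annotation, 1814 had several and 16010 were not listed there; the brightest of a gene's single-symbol probe sets was kept. Genes were tested where the highest group mean exceeded 3.549, the 30th percentile of all values. A model with a mean for each group was fitted over the 16 arrays with limma 3.58.1 under R 4.3.3 (lmFit, eBayes; 12 residual and 5.64 prior degrees of freedom), two-sided, with Benjamini-Hochberg adjustment over 16760 genes. The script was tested on simulated data. Array number limits the precision, as arrays give no read depth.

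The rule for named genes takes the 10 receptors always, Atg7 and Foxp3 as checks, up to 3 called genes of each partner list with the largest change in a comparison (or the 1 with the smallest p), and the 3 genes nearest in profile to each called receptor. The members and lists were chosen with earlier results of these data known. Alternatives covered the filter, normalization, probe set rule, array weights, prior, samples fitted, the replicate number as a block, and each array left out. The genotype difference averaged over treatments and the rapamycin difference averaged over genotypes were added after seeing the data.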

Additional observations from a re-analysis of the deposited data

Results flagged for a closer look

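Each of the 40 sets of 4 arrays (10 genes in 4 groups) was checked for 1 array far from the others by Dixon's ratio, the gap to the nearest array over the whole range; about 1 set in 20 is picked out by chance. In 4 sets an array was picked out. Ctla4 in rapamycin Atg7-/- cells had 10.03 on replicate 1, with the nearest array at 10.51 (ratio 0.915). Ctla4 in untreated Atg7-/- cells had 10.81 on replicate 1, with the nearest at 10.77 (0.899), in a group with little spread. Lrrc32 had 10.77 on untreated Atg7+/- replicate 1, with the nearest at 10.91 (0.855), and 10.19 on untreated Atg7-/- replicate 4, with the nearest at 10.68 (0.83).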

How the results depend on the processing

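Over 70 results on single receptor genes and 1720 values under alternatives, 1617 kept direction and call, 41 lost the call, 8 gained one and 54 turned direction, the last all for uncalled differences. Nrp1 and Itgae were called under all 25 alternatives in both genotypes. Median centring moved the genes called between genotypes to 318 in untreated cells (165 higher, 153 lower) and 350 under rapamycin (253 higher, 97 lower). Array weights gave 974 in untreated cells; under rapamycin the stricter filter gave 820, the trend and robust prior 886, and fitting only the groups compared 20. With only the groups compared, 3 receptor genes were called for rapamycin in Atg7-/- cells; that setting was not run for contrasts that need all groups. Receptor genes called for the averaged genotype difference were 1 with the replicate block and 1 without a filter (Tnfrsf18 was lost in both, adjusted p = 0.053 and 0.0534), and 0 with centring. With the replicate block, 529 and 592 genes were called between genotypes (untreated, rapamycin; 0 receptor genes in each), 2492 and 3491 for rapamycin (Atg7+/-, Atg7-/-; 4 and 6), 0 for the difference of effects, and 2019 and 5634 for the averaged genotype and rapamycin differences (1 and 6); it changed no other count of receptor genes. Deviations from group means correlated by -0.0829 to 0.3581 over 24 same-numbered pairs, and 6 were above 0.1. Of these, 3 joined the 2 rapamycin groups (replicates 1, 2 and 3, at 0.2395, 0.192 and 0.3581), where replicate 4 had -0.0658, so not every pair passed and the numbers were not taken to pair arrays. Leaving out 1 array gave 284 to 694 and 95 to 789 genes called between genotypes, untreated and under rapamycin, 1559 to 2785 and 2533 to 3420 for rapamycin in Atg7+/- and Atg7-/- cells, 0 to 1 for the difference of effects, and 1342 to 2097 and 5005 to 5775 for the averaged genotype and rapamycin differences. Receptor genes called after rapamycin ran from 3 to 5 (Atg7+/-) and 4 to 6 (Atg7-/-), and from 0 to 2 and 5 to 7 for the averaged differences. Counts of genes moved by over 1.5 times, between untreated genotypes, without untreated Atg7+/- replicates 1 to 4 (296, 333, 319 and 284) or Atg7-/- replicates 1 and 4 (300 and 319); between genotypes under rapamycin, without rapamycin Atg7+/- replicates 1, 2 and 4 (223, 95 and 255) or Atg7-/- replicates 3 and 4 (287 and 269); and for rapamycin in Atg7+/- cells without its replicate 2 (1559). The 1 gene called for the difference of effects appeared without rapamycin Atg7-/- replicate 2. The cause of these moves was not tested.

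Values that turned direction were small. Centring gave 0.0368 for Nrp1 and 0.0512 for Gpr83 between genotypes under rapamycin, 0.0121 for Tnfrsf9 under rapamycin in Atg7-/- cells, 0.0313, 2e-04 and 0.0191 for the difference of effects of Tnfrsf18, Tnfrsf4 and Lrrc32, and 0.004 for the averaged genotype difference of Tigit. Array weights gave 0.0043 for Tnfrsf4 between untreated genotypes, -0.0291 for Tigit between genotypes under rapamycin, and -0.0133 and -0.01 for the difference of effects of Tnfrsf9 and Nrp1; quantile normalization gave -0.0054 for Tigit. Leaving out 1 array gave, between untreated genotypes, -0.0292 to 0.0304 for Tnfrsf4, -0.0221 to 0.1693 for Itgae and -0.0123 to 0.0676 for Icos; under rapamycin, -0.1434 to 0.0747 for Nrp1, -0.1478 to 0.1791 for Itgae, -0.0867 to 0.0871 for Tigit and -0.1843 to 0.0946 for Gpr83. For rapamycin in Atg7-/- cells it gave -0.0768 to 0.0554 for Tnfrsf9, -0.0237 to 0.1878 for Lrrc32 and -0.1285 to 0.0093 for Icos. For the difference of effects it gave -0.0805 to 0.01 for Tnfrsf18, -0.0413 to 0.0909 for Tnfrsf9, -0.1785 to 0.033 for Lrrc32, -0.0699 to 0.1482 for Nrp1, -0.2447 to 0.0822 for Itgae and -0.0189 to 0.1549 for Tigit. For averaged differences it gave -0.1085 to 6e-04 for Nrp1, -0.0255 to 0.138 for Itgae and -0.0773 to 0.0096 for Tigit by genotype, and -0.0561 to 0.01 for Tnfrsf9 by rapamycin.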
